A study of Sus scrofa with 24 samples.

Results

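Chemokines are small secreted proteins that steer white blood cells, and their receptors are proteins of the cell membrane that couple to G proteins. The 27 chemokine and chemokine receptor genes described here were found on a pig microarray by their symbols, of 40858 features on the array. Any probe whose gene name, or bracketed symbol in its description, began with CCL, CXCL, XCL, CCR, CXCR, CX3CR or XCR and went on with a number was taken, with 1 further symbol not analysed here. This gave 15 ligands and 12 receptors on 33 probes: 21 genes had 1 probe and 6 had several, of which the brightest was used. The rule reads names and no measured difference between groups, but it was set with earlier results of these data known.

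RNA came from the veins of a pig model of haemodialysis access, in which a graft joins an artery to a vein and the venous end tends to narrow. The 6 groups of 4 samples were a control (external jugular vein), the anastomosis of graft and vein, and the vein just downstream, each at day 5 and at day 14 after the graft was placed. All 6 groups came from the grafted model, and no group from pigs without a graft was analysed here. The labels gave replicate numbers 1 to 4, called biological, and neither strain, age nor sex. The labels do not say whether 1 animal gave all 3 sites under a number. All controls were labelled with Cy3 and all anastomosis and downstream samples with Cy5. Site and dye therefore cannot be told apart in a comparison with the control, whereas the anastomosis and downstream samples shared a dye. Control and anastomosis samples of a number and day shared an array, and the downstream sample lay on another. Comparisons with the downstream vein were therefore made between arrays and carry differences between arrays.

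CC and CXC chemokines differ in the spacing of their first cysteines. CXC ligands such as CXCL2 act mainly on neutrophils through CXCR2. CXCL9 and CXCL10 are induced by interferon, and CXCL12 and its receptor CXCR4 retain and recruit blood and progenitor cells. Among the CC ligands, CCL2 draws monocytes through CCR2, CCL20 acts on CCR6, and CCL19 and CCL21 guide dendritic cells and lymphocytes through CCR7. In injured vessels, chemokines bring monocytes and other white cells into the wall.

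What each value rests on is a single probe of 60 bases. The stretches below, of 30 bases each and written 5′ to 3′ as on the array, belong to genes that differed between sites and to the other probes of CXCL12, CXCL9 and CXCL2, since those results turn on which probe is read. CCL5, which did not pass between sites, is shown for the bases its probe shares with CXCL2. Capitals mark the longest run that probes of 2 different members had in common, 13 bases in CXCL2 and CCL5, and no other pair of members shared 12 or more.
CCL20: atgtaaaaacagatgctccctgctatggaa
CCL21: ccaaatctggcaagaaggggaagggctcca
CXCL12, brighter probe: gacggcaaatccatcaaccacaaactcaca
CXCL12, dimmer probe: ttgaagtggattcaggaatacctggagaaa
CXCL9, brighter probe: taccctgtactttgaaatattttctttgct
CXCL9, dimmer probe: ctttgttcttccatctccaaccaactggat
CXCL2, brighter probe: tttccgctctgtcctGAAATAGAGAGGTtt
CXCL2, dimmer probe: gcatacatcgagaaaggacttgatgtgctg
CCL5: GAAATAGAGAGGTgaggtcagaggttaagg
CXCR4: ttttccactgttgcctgaatcctatcctct
CXCR2: tctaaggctctcttaagctatgagtggccc
CXCR6: atggaatcttggtgggttgcttgtttaaaa
CCR9: aagtaataagaaataacagcttccctaccc
The stretches are bases 1 to 30 of each probe, except for the brighter CXCL2 probe, where they are bases 31 to 60. Both probes of CXCL12 and both of CXCL9 shared no run longer than 6 bases with their partner, so the probes of a pair do not overlap.

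The share of probes well above background ran from 56.9% to 80.2% of the probes in a sample, a measure of how much each array could see, and at every site and day both of replicates 1 and 2 had a lower share than both of 3 and 4. Of the 27 members, 26 passed the filter (a signal well above background in 4 or more samples of the 24) and were tested. CCL28 was well above background in 0 samples. CCR6 was so in 5 samples, CCR3 in 16, CCR9 in 18, CCL21 in 19 and CCL27 in 21, and 0 members were saturated in any sample. Levels below are log2 values of the normalised signal, and a level of one gene cannot be set against that of another, since each probe binds with its own strength. The day 14 control of replicate 2 stood apart: the mean level of 6 adipocyte markers was 14.44 in it and 7.85 to 9.76 in the other 3 controls of that day, and that of 5 smooth muscle markers was 12.61 against 14.97 to 15.64. The adipocyte mean also reached 13.98 in 1 anastomosis and 13.78 in 1 downstream sample of that day. Results at day 14 are therefore also given without it, an alternative chosen after seeing the data.

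Against the jugular control, 10 of the 26 members differed at the anastomosis on at least 1 day. CXCL12, read by its brighter probe, was the 1 gene called in the same direction on both days. Site differences were estimated over all 24 samples with each replicate number and day as a block, and p-values were adjusted over all 33555 features tested. At day 5, CCL20, CXCL12 and CXCR4 were higher at the anastomosis and CXCL9 was lower. The 3 of 26 higher (11.5%) stand beside 9.11% of all features, and the 1 of 26 lower (3.85%) beside 10.3%, so that the share of members called was near the background. At day 14, 4 members were higher, among them CCL21, CXCL12 and CXCR6, and CXCL2, CXCR2 and CCR9 were lower, which is 15.4% of the members higher beside 4.76% of all features and 11.5% lower beside 4.03%. Downstream, CXCR2 was the 1 member called at day 5, lower, beside 5% of all features lower and 3.22% higher. At day 14 the downstream vein had CXCL12 higher, beside 0.635% of features, and CXCR2 lower, beside 0.274%. The median difference over the members lay between 0.06 and 0.13 in these 4 comparisons, and that over all features was at most 0.01. With arrays centred on their median and no loess, the median over all features was 0.10 to 0.19. The members called were then 8 higher and 1 lower at the day 5 anastomosis, and the features called there 8926 higher and 2124 lower, against 3058 and 3445 with loess. With the scanner software's processed signal, 405 features were higher and 2409 lower downstream at day 5, against 1079 and 1677. Without the block, 1 and 2 members were called at the anastomosis at days 5 and 14, and 0 downstream on either day.

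**Figure D1:**
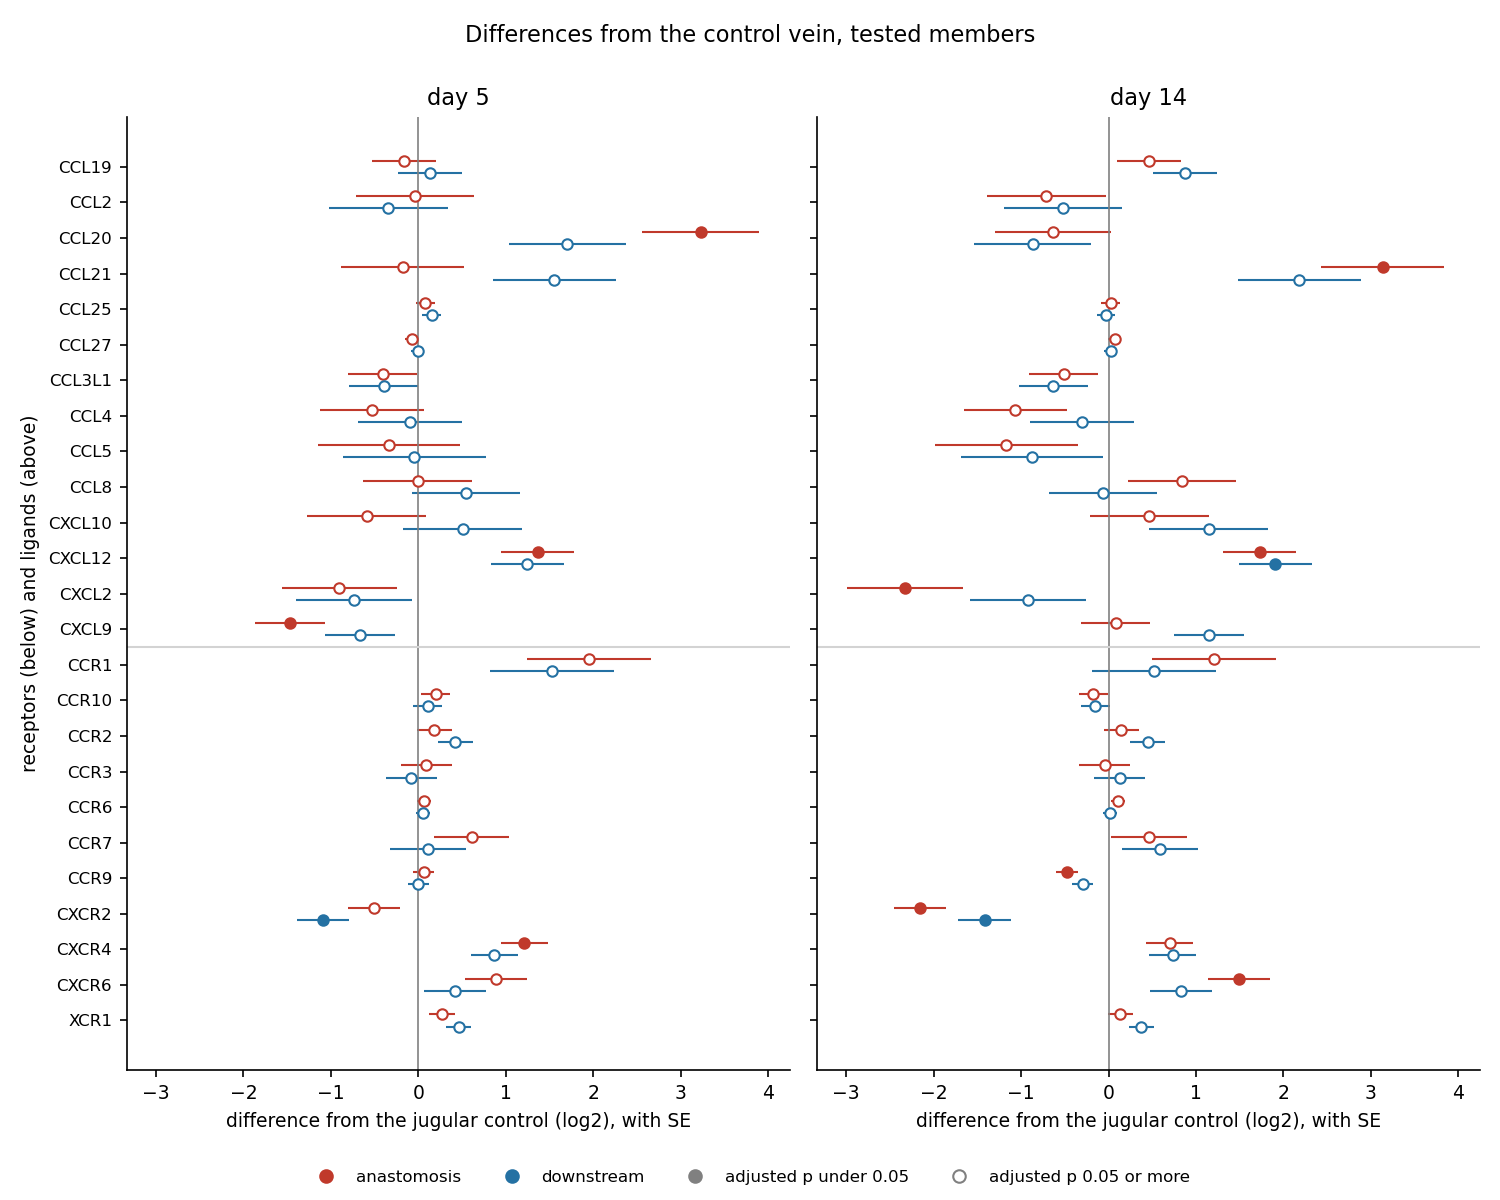
Fitted difference from the jugular control (log2, x axis, bars are the SE) for tested members at day 5 and day 14, in the anastomosis (red) and downstream (blue). Filled points passed an adjusted p of 0.05: CCL20 stood 3.23 above the control at day 5, CCL21 stood 3.13 above it at day 14, and each filled CXCR2 point lies below 0.

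CCL20, the ligand of CCR6, was higher at the anastomosis than in the control at day 5. At day 5 its level in replicates 1 to 4 was 7.84, 7.47, 6.73 and 7.25 in the control, 11.28, 9.90, 12.31 and 8.73 at the anastomosis, and 7.74, 7.95, 10.41 and 9.999 downstream. Every anastomosis sample lay above every control, while the downstream samples fell into a pair near the control and a pair well above it. CCL20 rose 9.40-fold at the anastomosis (difference 3.23 ± 0.67, SE, adjusted p = 0.00451, higher in 4 of 4 replicates). The difference was 2.93 in replicates 1 and 2 and 3.53 in replicates 3 and 4, and leaving out replicate 3 ended the call (2.45, adjusted p = 0.052). Downstream the difference of 1.70 ± 0.67 did not pass (adjusted p = 0.13). At day 14 the control ranged from 6.69 to 8.79, the anastomosis from 6.74 to 7.82 and the downstream vein from 6.67 to 7.11, with all groups overlapping. Its receptor CCR6 stayed at the background: it was well above background in 0 of 8 controls, 1 of 4 anastomosis samples on each day, and 1 and 2 of 4 downstream samples at days 5 and 14.

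CCL21, a ligand of CCR7 made by lymphatic endothelium and lymph node stroma, was higher at the anastomosis than in the control at day 14. At day 14 its level was 6.93, 6.88, 6.52 and 6.89 in the control, 8.79, 9.42, 10.56 and 10.99 at the anastomosis, and 6.65, 8.40, 10.13 and 10.75 downstream. Control and anastomosis did not overlap, and 1 downstream sample lay at the control level. CCL21 rose 8.78-fold at the anastomosis (difference 3.13 ± 0.70, SE, adjusted p = 0.0162, higher in 4 of 4 replicates). Without the day 14 control of replicate 2 the difference was 3.34 (adjusted p = 0.0202). Within replicates 1 and 2 the difference was 2.20 and within 3 and 4 it was 4.07, and the call was lost without replicate 3 (2.83, adjusted p = 0.071) or without replicate 4 (2.81, adjusted p = 0.079). Downstream the difference at day 14 was 2.18 ± 0.70 (adjusted p = 0.16).

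At day 5, CCL21 was well above background in 2 of 4 controls and in 2 of 4 anastomosis samples, and its level was 6.80 ± 0.90 and 6.62 ± 0.60 (SD, n = 4) in these groups. In the downstream vein it was well above background in 4 of 4 samples, at 7.39, 9.45, 9.96 and 6.62. CCL19, the other ligand of CCR7, was measured in all samples and ran from 9.99 to 13.25, with no comparison called. CCR7 itself ran from 6.86 to 9.53, and its largest difference was 0.61 ± 0.43 at the day 5 anastomosis (adjusted p = 0.39, higher in 4 of 4 replicates).

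CXCL12, which binds CXCR4 and the scavenger receptor ACKR3, was higher at both graft sites than in the control by its brighter probe. At day 5 the level was 11.31, 12.01, 11.72 and 11.87 in the control, 14.23, 13.18, 12.92 and 12.04 at the anastomosis, and 11.90, 13.56, 13.28 and 13.16 downstream. The lowest anastomosis sample, 12.04, was just above the highest control, 12.01. At day 14 it was 10.48, 11.85, 11.63 and 11.02 in the control, 12.89, 13.29, 13.42 and 12.29 at the anastomosis, and 12.37, 13.06, 13.68 and 13.49 downstream, and both graft sites lay wholly above the control. CXCL12 rose 2.57-fold at the anastomosis at day 5 (difference 1.36 ± 0.42, SE, adjusted p = 0.0331) and 3.32-fold at day 14 (1.73 ± 0.42, adjusted p = 0.0219). Downstream it rose 3.75-fold at day 14 (1.91 ± 0.42, adjusted p = 0.0487), and the day 5 difference of 1.25 ± 0.42 did not pass (adjusted p = 0.077). All 4 replicates were higher than their control in each of these comparisons.

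The 2 probes of CXCL12 did not give the same answer. The dimmer probe was well above background in 24 of 24 samples. Its level was 10.80 ± 0.76 in the control and 10.76 ± 0.77 at the anastomosis at day 5, and 11.38 ± 1.33 and 11.17 ± 0.78 at day 14 (SD, n = 4). Its difference was -0.04 at the day 5 anastomosis (adjusted p = 0.96) and -0.21 at day 14 (adjusted p = 0.76), where the brighter probe gave 1.36 and 1.73. Downstream both probes had a positive difference: 0.74 at day 5 (adjusted p = 0.18) and 0.67 at day 14 (adjusted p = 0.37) by the dimmer one. With the mean of both probes the anastomosis difference was 0.66 at day 5 and 0.76 at day 14, and neither passed. By the brighter probe at day 5, the difference was 2.05 in replicates 1 and 2 and 0.68 in replicates 3 and 4, and was 0.85 (adjusted p = 0.062) without replicate 1, 1.43 (adjusted p = 0.1) without replicate 2 and 1.42 (adjusted p = 0.13) without replicate 3. At day 14 the calls of CXCL12 were lost without replicate 2, 3 or 4, with 1.83, 1.71 and 1.88 at the anastomosis (adjusted p = 0.060, 0.11 and 0.089) and 2.14, 1.86 and 1.72 downstream (adjusted p = 0.090, 0.26 and 0.26). Without the block the adjusted p of the brighter probe was 0.060 at the day 5 anastomosis and 0.14 downstream at day 14.

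**Figure D2:**
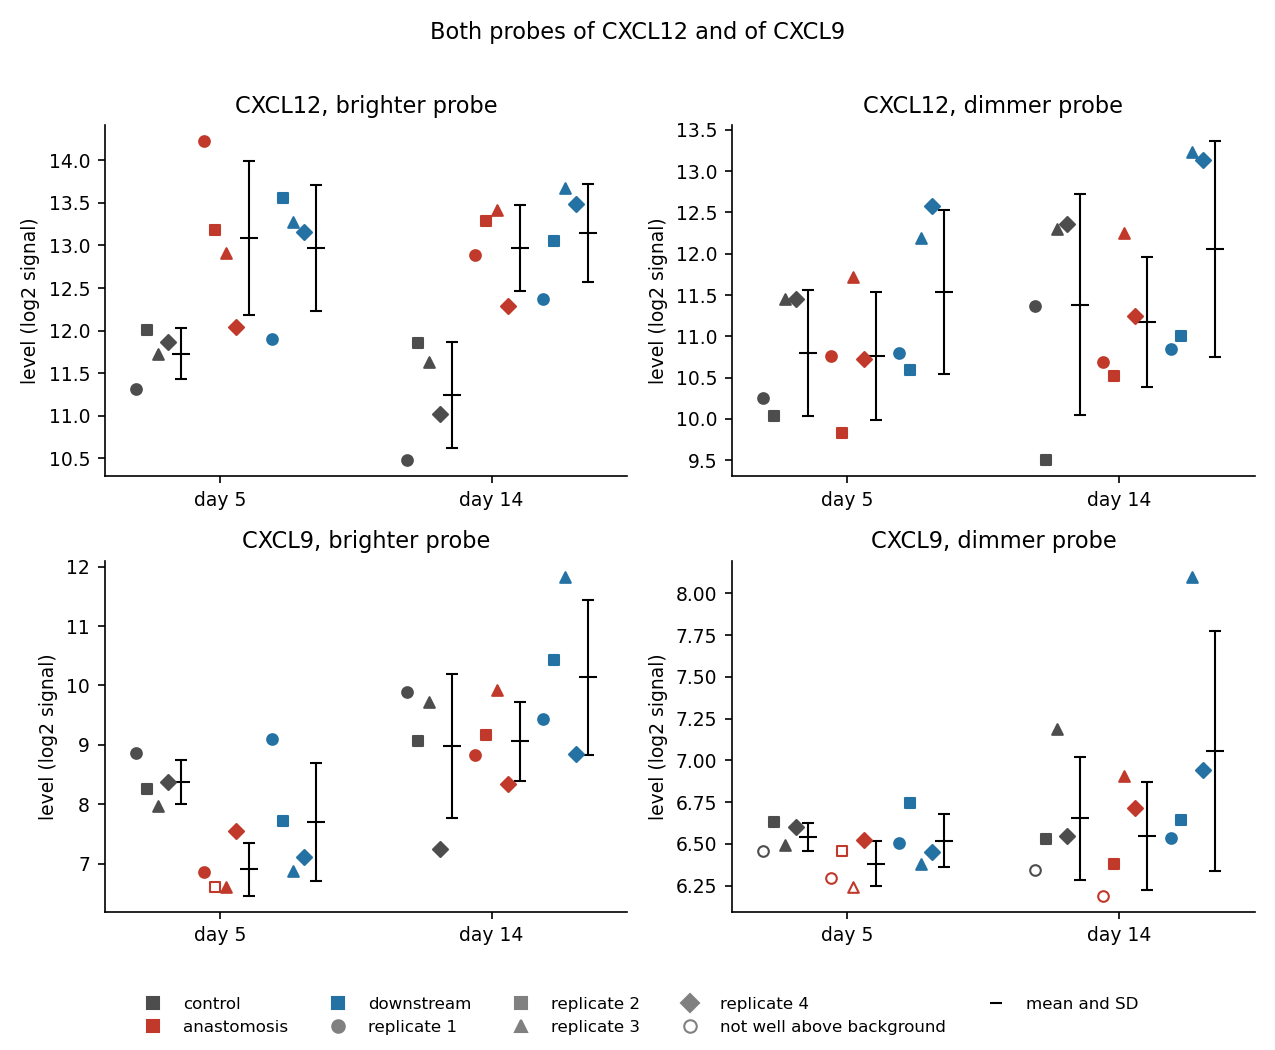
Level of both probes of CXCL12 and of CXCL9 (log2 signal, y axis) in each of the 24 samples by site and day, with the mean and SD of each group of 4. By the brighter CXCL12 probe the day 14 graft sites lie above the control, with means of 12.97 and 13.15 against 11.24, whereas by the dimmer probe control and anastomosis overlap on both days.

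The interferon-induced CXCL9 was low at the anastomosis at day 5. Its level was 8.86, 8.26, 7.97 and 8.38 in the control, 6.86, 6.60, 6.61 and 7.54 at the anastomosis, and 9.10, 7.72, 6.87 and 7.11 downstream. All anastomosis samples lay below all controls, with 3 of 4 well above background, and the downstream samples overlapped both. CXCL9 fell 2.76-fold at the anastomosis (difference -1.47 ± 0.40, SE, adjusted p = 0.0191, lower in 4 of 4 replicates). The difference was -1.83 in replicates 1 and 2 and -1.1001 in replicates 3 and 4, and leaving out replicate 2 or 3 ended the call, with adjusted p of 0.105 and 0.072, as did the fit without the block (adjusted p = 0.18). Its dimmer probe, near background with 18 of 24 samples well above it, gave a difference of -0.16 (adjusted p = 0.46).

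At day 14 CXCL9 was 9.90, 9.07, 9.72 and 7.24 in the control, 8.82, 9.17, 9.92 and 8.34 at the anastomosis, and 9.44, 10.43, 11.83 and 8.84 downstream. All groups overlapped, and the differences from the control were 0.08 ± 0.40 and 1.15 ± 0.40 (adjusted p = 0.93 and 0.19). CXCL10, a second ligand of the same receptor, was also lowest on average at the day 5 anastomosis, at 9.76 ± 0.42 against 10.35 ± 1.18 in the control and 10.85 ± 1.496 downstream (SD, n = 4). At day 14 these means were 11.54 ± 0.76, 11.07 ± 1.46 and 12.22 ± 1.102. No comparison of CXCL10 passed. The RefSeq table gives the name CXCR3, the receptor of both, to a numbered locus on the array, whose level was between 7.65 and 8.57 in all samples and whose differences from the control were between -0.05 and 0.03.

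CXCL2, a neutrophil attractant, had a lower level at the anastomosis at day 14. The level was 16.67, 17.46, 16.43 and 17.33 in the control, 15.36, 14.07, 14.93 and 14.22 at the anastomosis, and 16.58, 17.53, 14.38 and 15.73 downstream. No anastomosis sample reached the lowest control, and the downstream samples spread over both ranges. CXCL2 fell 5.03-fold (difference -2.33 ± 0.66, SE, adjusted p = 0.0422, lower in 4 of 4 replicates), and both probes showed it, with -2.71 by the dimmer one (adjusted p = 0.0344). The difference was -2.35 in replicates 1 and 2 and -2.30 in replicates 3 and 4. Without the day 14 control of replicate 2 it was -2.32 with an adjusted p of 0.069, and leaving out replicate 1, 2 or 4 as a whole gave an adjusted p of 0.104 to 0.217. With arrays centred on their median in place of loess the difference was -1.27 (adjusted p = 0.15), and without the block the adjusted p was 0.11.

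**Figure D3:**
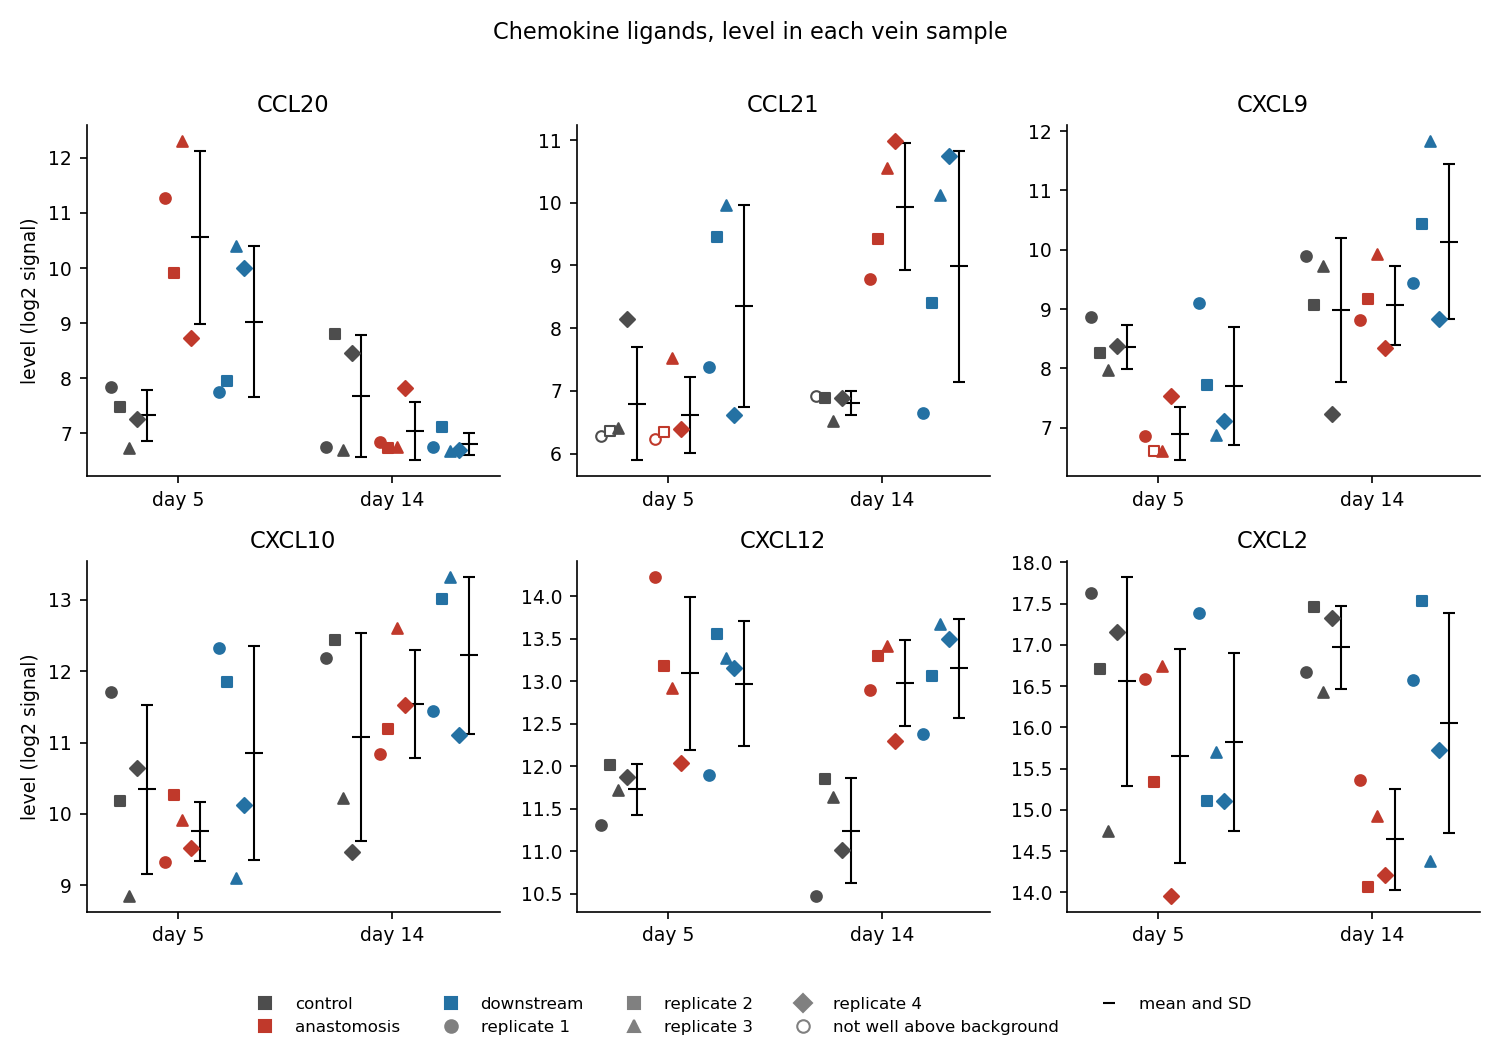
Level (log2 signal, y axis) of 6 ligands in each of the 24 samples by site and day, with replicate numbers as symbols, open symbols for samples not well above background, and the mean and SD of each group of 4. CCL20 reaches 12.31 at the day 5 anastomosis and lies at or under 7.82 there at day 14, and CCL21 lies at or under 7.52 there at day 5 and between 8.79 and 10.99 at day 14.

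The other ligands were called in no comparison between sites. CCL2, which attracts monocytes, ran from 12.01 to 15.80, with differences from the control between -0.71 and -0.04, and its second probe gave differences from -0.30 to 0.03. For CCL5, an attractant of T cells and monocytes, control samples alone ran from 9.41 to 12.48, and its difference at the day 14 anastomosis was -1.17 ± 0.82 (adjusted p = 0.41, lower in 4 of 4 replicates). CCL4 and CCL3L1, which lie near it on the chromosome, had differences of -1.07 ± 0.59 and -0.51 ± 0.39 there (adjusted p = 0.29 and 0.46). CCL8, a further monocyte attractant, was 10.12 ± 1.53 at the day 14 anastomosis and 9.28 ± 1.30 in its control (SD, n = 4). For CCL25 and CCL27, ligands of CCR9 and CCR10, group means lay within 7.79 to 8.20 and 6.48 to 6.60.

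Among the receptors, CXCR4 was higher at the anastomosis at day 5. Its level in replicates 1 to 4 was 9.64, 9.35, 8.78 and 8.42 in the control, 11.05, 10.76, 9.72 and 9.51 at the anastomosis, and 10.03, 10.32, 9.69 and 9.63 downstream. Control and anastomosis overlapped as groups, yet each replicate was higher at the anastomosis than in its own control. CXCR4 rose 2.32-fold (difference 1.21 ± 0.27, SE, adjusted p = 0.00658, higher in 4 of 4 replicates), with 1.41 in replicates 1 and 2 and 1.01 in replicates 3 and 4. The call held without any 1 replicate (1.15 to 1.30). It rested on the pairing by replicate number, since without the block the adjusted p was 0.12. At day 14 the difference was 0.70 ± 0.27 (adjusted p = 0.12, higher in 3 of 4 replicates), and without the day 14 control of replicate 2, whose level was 10.84 against 8.85 to 8.95 in the other controls, it was 0.97 (adjusted p = 0.0339). Downstream the differences of 0.87 and 0.73 at days 5 and 14 did not pass (adjusted p = 0.060 and 0.21), and without that control the day 5 value passed (adjusted p = 0.0353). ACKR3, which binds CXCL12 without signalling through G proteins, had differences from the control of 0.27 to 0.65, and none passed (smallest adjusted p = 0.087).

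CXCR2, the neutrophil receptor of CXCL2, was lower than in the control at the anastomosis at day 14 and downstream on both days. At day 14 the level was 10.70, 13.74, 11.21 and 13.10 in the control, 9.24, 10.96, 8.65 and 11.26 at the anastomosis, and 9.14, 11.87, 9.46 and 12.61 downstream. The groups overlapped because the level varied widely between replicate numbers, with replicates 2 and 4 the highest at all 3 sites. Within each number the graft sites were below the control, and CXCR2 fell 4.45-fold at the anastomosis (difference -2.15 ± 0.30, SE, adjusted p = 0.0017, lower in 4 of 4 replicates). Replicates 1 and 2 gave -2.11 and replicates 3 and 4 gave -2.20, and the call held without any 1 replicate. Without the day 14 control of replicate 2 it was -1.98 (adjusted p = 0.0044).

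Downstream CXCR2 fell 2.13-fold at day 5 (-1.09 ± 0.30, adjusted p = 0.0394) and 2.67-fold at day 14 (-1.42 ± 0.30, adjusted p = 0.0437), in 4 of 4 replicates each. The day 14 call was lost without any 1 replicate (adjusted p 0.1 to 0.197) and without the control of replicate 2 (-1.24, adjusted p = 0.064). The day 5 call was lost without replicate 2, 3 or 4 (-1.02, -0.90 and -1.22). With arrays centred on their median in place of loess the downstream differences were -0.54 (adjusted p = 0.20) and -0.79 (adjusted p = 0.061) at days 5 and 14. With no block, the adjusted p of CXCR2 was 0.24 at the day 14 anastomosis and 0.74 and 1.00 downstream. At the day 5 anastomosis the difference was -0.50 ± 0.30 (adjusted p = 0.29), although also lower in 4 of 4 replicates.

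CXCR6, a receptor of activated T cells and natural killer cells, was higher at the anastomosis at day 14. Its level was 7.44, 7.41, 7.08 and 6.40 in the control, 9.36, 9.25, 7.70 and 7.97 at the anastomosis, and 8.02, 7.28, 8.92 and 7.43 downstream. The anastomosis samples all lay above the controls. CXCR6 rose 2.81-fold (difference 1.49 ± 0.36, SE, adjusted p = 0.0214, higher in 4 of 4 replicates), with 1.88 in replicates 1 and 2 and 1.098 in replicates 3 and 4. Without replicate 1 or 4 the adjusted p was 0.096 and 0.18, and without the control of replicate 2 the difference was 1.59 (adjusted p = 0.0262). The call was also lost without the block (adjusted p = 0.087), in the authors' deposited values (1.39, adjusted p = 0.107) and in a fit of these groups alone (adjusted p = 0.092). At day 5 it was higher at the anastomosis in 4 of 4 replicates as well, by 0.89 ± 0.36 (adjusted p = 0.0997).

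CCR9, a homing receptor for the gut, lay near background, at 6.54, 7.51, 6.55 and 6.59 in the day 14 control and 6.45, 6.39, 6.26 and 6.17 at the anastomosis. All 4 anastomosis samples were below all controls, and the difference was -0.48 ± 0.12 (SE, adjusted p = 0.0277). Without replicate 2, the 1 control above 7, it was -0.26 (adjusted p = 0.098), and without that control alone it was -0.29 (adjusted p = 0.0465). Leaving out replicate 3 or 4 also ended the call (-0.54 and -0.50), as did the fit without the block (adjusted p = 0.17), the scanner software's processed signal (-1.23, adjusted p = 0.11) and the authors' deposited values (-0.88, adjusted p = 0.093).

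CCR1, a receptor of monocytes and neutrophils, had the largest difference among the receptors that were not called. At day 5 it was 12.08, 10.87, 9.78 and 10.31 in the control, 13.48, 12.96, 12.07 and 12.33 at the anastomosis, and 11.74, 13.43, 12.08 and 11.90 downstream. It was higher at the anastomosis in 4 of 4 replicates, by 1.95 ± 0.71 (SE, adjusted p = 0.069), and its second probe, which shares a run of 28 bases with the first, gave 1.98 (adjusted p = 0.059). The 95% interval of the difference was 0.43 to 3.47. At day 14 control samples of CCR1 ran from 8.57 to 14.06, and the difference was 1.20 ± 0.71 (adjusted p = 0.32). CCR2, the receptor of CCL2, had differences of 0.15 to 0.45 in the 4 comparisons with the control, and none passed (smallest adjusted p = 0.21). For CCR10 and XCR1 the differences lay between -0.17 and 0.46, and for CCR3 between -0.08 and 0.13.

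**Figure D4:**
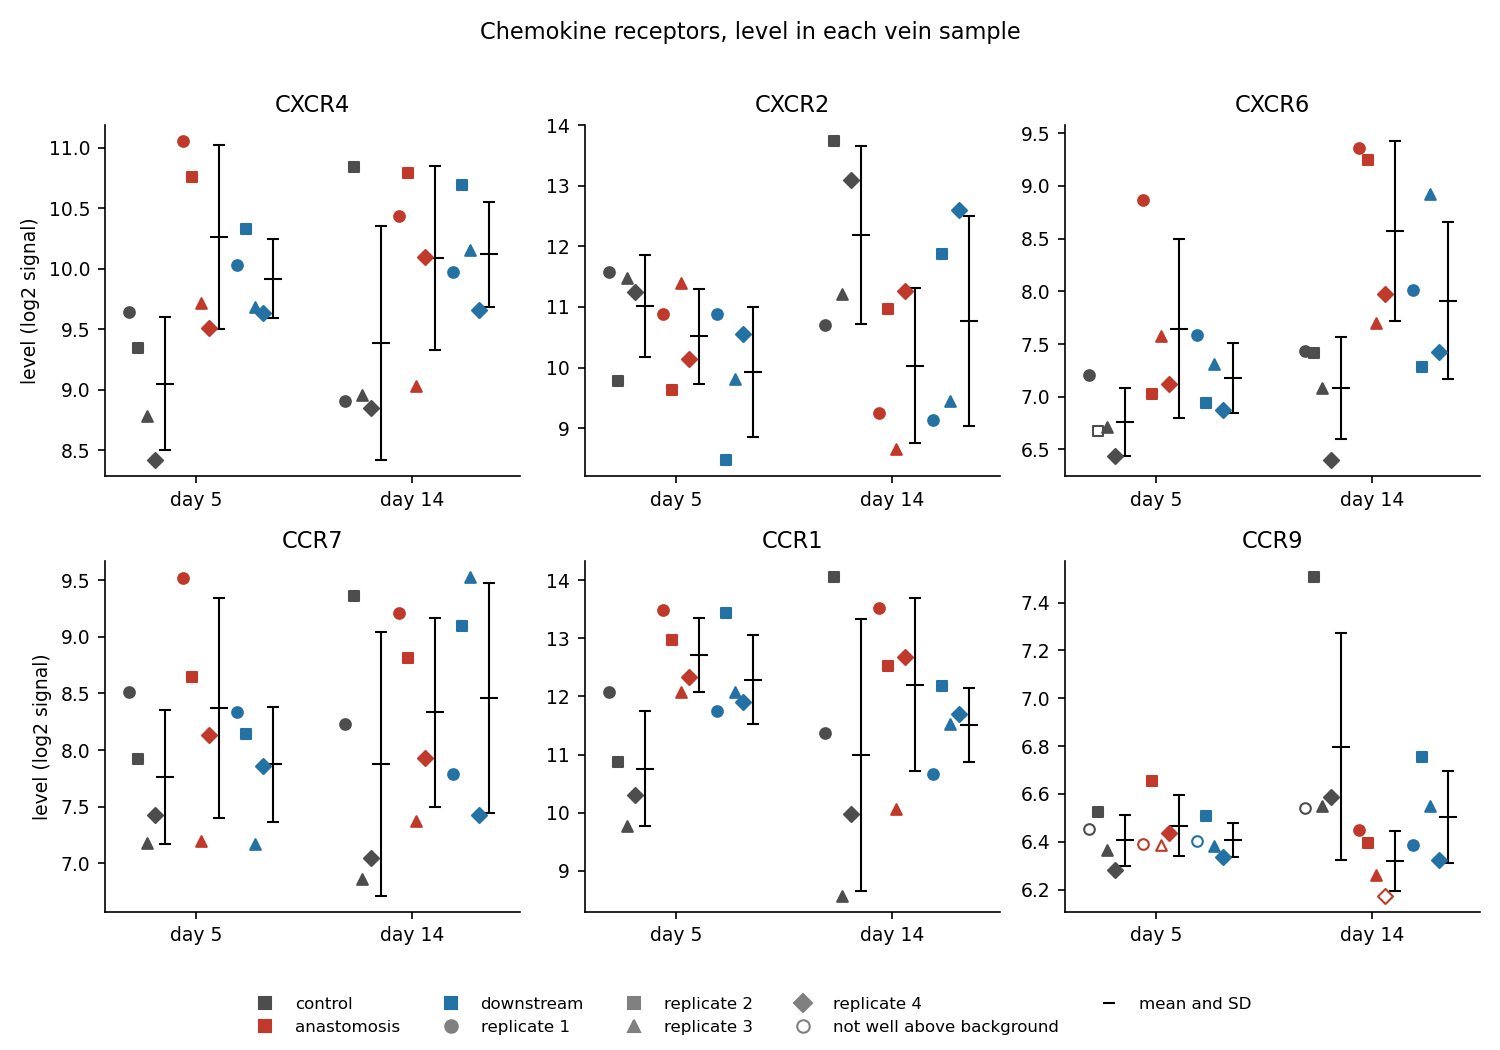
Level (log2 signal, y axis) of 6 receptors in each of the 24 samples by site and day, with replicate numbers as symbols, open symbols for samples not well above background, and the mean and SD of each group of 4. CXCR2 at day 14 shows replicates 2 and 4 above 1 and 3 at every site, and the anastomosis below the control within each number.

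The anastomosis and the downstream vein, both labelled with Cy5 but on different arrays, differed in 0 of the 26 members on either day in limma's test. The share of all features was also 0%. At an unadjusted p under 0.05 there were 2 members on each day. All features at that threshold were 3368 of 33555 at day 5 and 4741 at day 14. At day 5 CCL20 was 1.53 ± 0.67 higher at the anastomosis and CCL21 was lower, at -1.74 ± 0.70 (adjusted p = 0.48 and 0.46). At day 14 CXCL9 and CXCR2 were lower there, at -1.07 ± 0.40 and -0.74 ± 0.30 (adjusted p = 0.26 and 0.29). For CXCL12 by its brighter probe, the difference between both graft sites was 0.12 at day 5, with a 95% interval of -0.77 to 1.01. At day 14 it was -0.18, with an interval of -1.07 to 0.72. The dimmer CXCL12 probe gave -0.78 ± 0.33 at day 5 and -0.88 ± 0.33 at day 14 (SE, adjusted p = 0.47 and 0.27).

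Between day 5 and day 14, 0 of 26 members passed at any site by limma. The background was 0.00596% of all features at the anastomosis and 0% at the other sites. Of all 33555 features, 2784, 1497 and 644 reached an unadjusted p under 0.05 at the anastomosis, downstream and in the control. Among the members, 4, 2 and 0 did so. At the anastomosis these were CCL21 (3.32 ± 0.50, adjusted p = 0.19), CXCL9 (2.16 ± 0.35, adjusted p = 0.19), CXCL10 (1.78 ± 0.38, adjusted p = 0.29) and CCL20 (-3.52 ± 0.70, adjusted p = 0.26). For CCL20, CCL21, CXCL9 and CXCL10 the 4 samples of one day at the anastomosis lay wholly apart from the 4 of the other. These genes were picked by their unadjusted p in this same comparison, so the separation is no further support. In the values that the authors deposited, tested the same way, CCL20 (-5.76), CCL21 (5.08) and CXCL9 (3.87) were called at the anastomosis, together with CCL19. Over all features, those values gave 1478 higher and 1640 lower there, against 1 and 1 in the main fit. Downstream the 2 members were CCL20 (-2.22 ± 0.60) and CXCL9 (2.43 ± 0.71), both with an adjusted p of 1.

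Whether the difference from the control itself changed between days was tested as an interaction, and 0 members passed for either graft site or between both, as in 0% of all features. Of all 33555 features, 2788 reached an unadjusted p under 0.05 for the anastomosis against the control, and so did 5 members. For downstream against the control it was 2530 features and 2 members, and for the anastomosis against downstream 1396 features and 2 members. For the anastomosis against the control the 5 members were CCL20 (-3.87 ± 0.95, adjusted p = 0.40), CXCR2 (-1.65 ± 0.42, adjusted p = 0.40), CCL21 (3.31 ± 0.99, adjusted p = 0.42), CCR9 (-0.54 ± 0.17, adjusted p = 0.44) and CXCL9 (1.55 ± 0.56, adjusted p = 0.49). A call on 1 day and not on the other is therefore not a shown difference between days for any member.

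Ligand and receptor of a pair did not share a call in the same comparison except in 2 cases. CXCL12, by its brighter probe only, and CXCR4 were both higher at the day 5 anastomosis, and CXCL2 and CXCR2 were both lower at the day 14 anastomosis. The dimmer CXCL12 probe gave -0.04 at the day 5 anastomosis (adjusted p = 0.96). CCL21 was higher at day 14 with CCR7 at 0.46 ± 0.43 (adjusted p = 0.57). CCL20 was higher at day 5 with CCR6 near background.

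Of 23 further genes of chemokine signalling that were measured, 4 rose and 1 fell at the day 5 anastomosis, 2 rose and 1 fell there at day 14, 1 rose downstream at day 5 and 0 were called downstream at day 14 (6 at an unadjusted p under 0.05). At the day 5 anastomosis this is 17.4% higher and 4.35% lower beside 9.11% and 10.3% of all features, at day 14 it is 8.7% and 4.35% beside 4.76% and 4.03%, and downstream at day 5 it is 4.35% higher beside 3.22%. Downstream at day 14 the unadjusted p was under 0.05 in 5036 of all 33555 features. AMCF-II, a pig CXC ligand of neutrophils, was 8.17, 8.34, 6.64 and 7.29 in the day 5 control and 12.33, 10.15, 10.40 and 9.33 at the anastomosis, and rose 7.66-fold without overlap (difference 2.94 ± 0.95, adjusted p = 0.0423). CCRL1, an atypical receptor that binds CCL19 and CCL21 and does not signal, fell 5.29-fold (-2.40 ± 0.75, adjusted p = 0.0363). MIF, a cytokine that also binds CXCR4, rose 1.83-fold (0.87 ± 0.20, adjusted p = 0.00753), and DPP4, a protease that cleaves many chemokines, rose 2.25-fold (1.17 ± 0.36, adjusted p = 0.0358). RGS2, which dampens G protein signals, rose 3.27-fold at the day 5 anastomosis (adjusted p = 5.84e-04), 2.31-fold at day 14 (adjusted p = 0.00738) and 2.74-fold downstream at day 5 (adjusted p = 0.00511). At the day 14 anastomosis DPP4 rose 3.16-fold (adjusted p = 0.0147) and RELA, a subunit of NF-kappaB, fell 1.78-fold (adjusted p = 0.0067). IL8, a CXC ligand that acts on CXCR2, had control levels from 8.42 to 16.02 at day 14, and its difference at the anastomosis was 1.51 ± 0.64 at day 5 (adjusted p = 0.12) and -1.37 ± 0.64 at day 14 (adjusted p = 0.20).

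A further 6 numbered loci carry a chemokine or receptor symbol in the current RefSeq table and are no members, since the array names them by number, and 5 of them were tested. The locus now named CCL26 was 11.45, 8.82, 9.94 and 10.52 in the day 5 control and 7.57, 6.99, 6.14 and 6.72 at the anastomosis. It fell 10.04-fold without overlap (difference -3.33 ± 0.73, SE, adjusted p = 0.00634), and downstream the difference was -2.38 ± 0.73 (adjusted p = 0.059). The locus now named CCL16 was lower at the day 5 anastomosis (adjusted p = 0.012), with no fold given since it was well above background in 0 of 4 samples there against 4 of 4 controls. The locus now named CXCL13, a B cell attractant, was 7.80, 7.58, 7.47 and 7.40 in the day 14 control and 11.39, 10.03, 7.89 and 9.24 at the anastomosis, and the difference of 2.07 ± 0.64 did not pass (adjusted p = 0.057), although the groups did not overlap.

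Some markers of white cells and of the vessel wall differed between the control and the graft sites. The samples were whole vein tissue, so fewer cells of a type and less RNA per cell cannot be told apart. PTPRC, which marks white cells in general, was not called, with differences of 0.26 and 0.48 at the anastomosis (adjusted p = 0.43 and 0.15) and 0.43 and 0.47 downstream (adjusted p = 0.19 and 0.28) at days 5 and 14. Of 8 measured monocyte and macrophage markers (of 12 listed), 3 rose at the anastomosis on each day and 3 downstream at day 5, and 0 were called downstream at day 14 (2 at an unadjusted p under 0.05). Each 3 of 8 is 37.5%, beside 9.11% and 4.76% of all features higher at the anastomosis (days 5 and 14) and 3.22% downstream at day 5. MSR1, a scavenger receptor of macrophages, had a difference of 2.50 ± 0.39 at the day 5 anastomosis (adjusted p = 0.00102). The mean level of these 8 markers ran from 11.45 to 11.99 in the day 5 control and from 12.16 to 13.12 at the anastomosis, and from 11.22 to 11.89 and from 12.48 to 13.56 at day 14. Of 11 T and NK cell markers, 0 were called at the day 5 anastomosis (1 at an unadjusted p under 0.05). At the day 14 anastomosis 2 rose, CD4 and NKG7, which is 18.2% beside 4.76% of all features higher. Of the 11, 7 had a difference above 0 there, and 1 was lower at an unadjusted p under 0.05. The list means were 7.23 to 9.06 in the day 14 control and 7.73 to 8.48 at the anastomosis. Of 2 measured dendritic cell markers (of 7 listed), 1 was called higher at the anastomosis on each day and 1 downstream at day 5. Downstream at day 14, 0 were called (1 at an unadjusted p under 0.05). The shares of all features higher were 9.11% and 4.76% at the anastomosis and 3.22% downstream at day 5. Of 3 measured B and plasma cell markers (of 9 listed), 0 were called in any of the 4 comparisons with the control (0 and 2 at an unadjusted p under 0.05 at the anastomosis at days 5 and 14, and 1 downstream on each day). Of 5 smooth muscle markers, 4 fell at the day 5 anastomosis and 2 downstream at day 5, beside 10.3% and 5% of all features, and 0 were called at day 14 (3 at an unadjusted p under 0.05 at the anastomosis and 1 downstream). At the day 5 anastomosis the list mean ran from 12.96 to 14.12 against 15.21 to 15.71 in the control. Of all 33555 features, 10428 and 8344 had an unadjusted p under 0.05 at the anastomosis (days 5 and 14), and 8418 and 5036 downstream.

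Of 7 endothelial markers, 3 rose at the day 5 anastomosis and 2 at day 14, beside 9.11% and 4.76% of all features higher. Downstream 3 rose at day 5 and 1 at day 14, beside 3.22% and 0.635%. Of the genes listed under lymphatic endothelium 2 were measured, CCBE1 and PROX1. CCBE1 rose at the day 5 anastomosis (3.24 ± 0.66, adjusted p = 0.00392), where CCL21 did not pass. PROX1 had a difference of -0.60 ± 0.24 there (adjusted p = 0.106). With opposite signs in these 2 genes, the mean of this list is not a measure of lymphatic endothelial cells. At the day 14 anastomosis, where CCL21 rose, neither passed, with 2.19 ± 0.66 for CCBE1 (adjusted p = 0.0519) and 0.53 ± 0.24 for PROX1 (adjusted p = 0.19). Between the days at the anastomosis CCBE1 fell (-1.57 ± 0.14, adjusted p = 0.0436), whereas PROX1, at 1.41 ± 0.27 (adjusted p = 0.25), and CCL21, at 3.32, had positive differences that did not pass. Of the neutrophil list 1 of 10 genes was measured, LTF, with differences of -0.14 and -0.35 at the anastomosis at days 5 and 14 (adjusted p = 0.70 and 0.29), beside the CXCR2 values above. The part of these markers in the chemokine results was not tested.

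**Figure D5:**
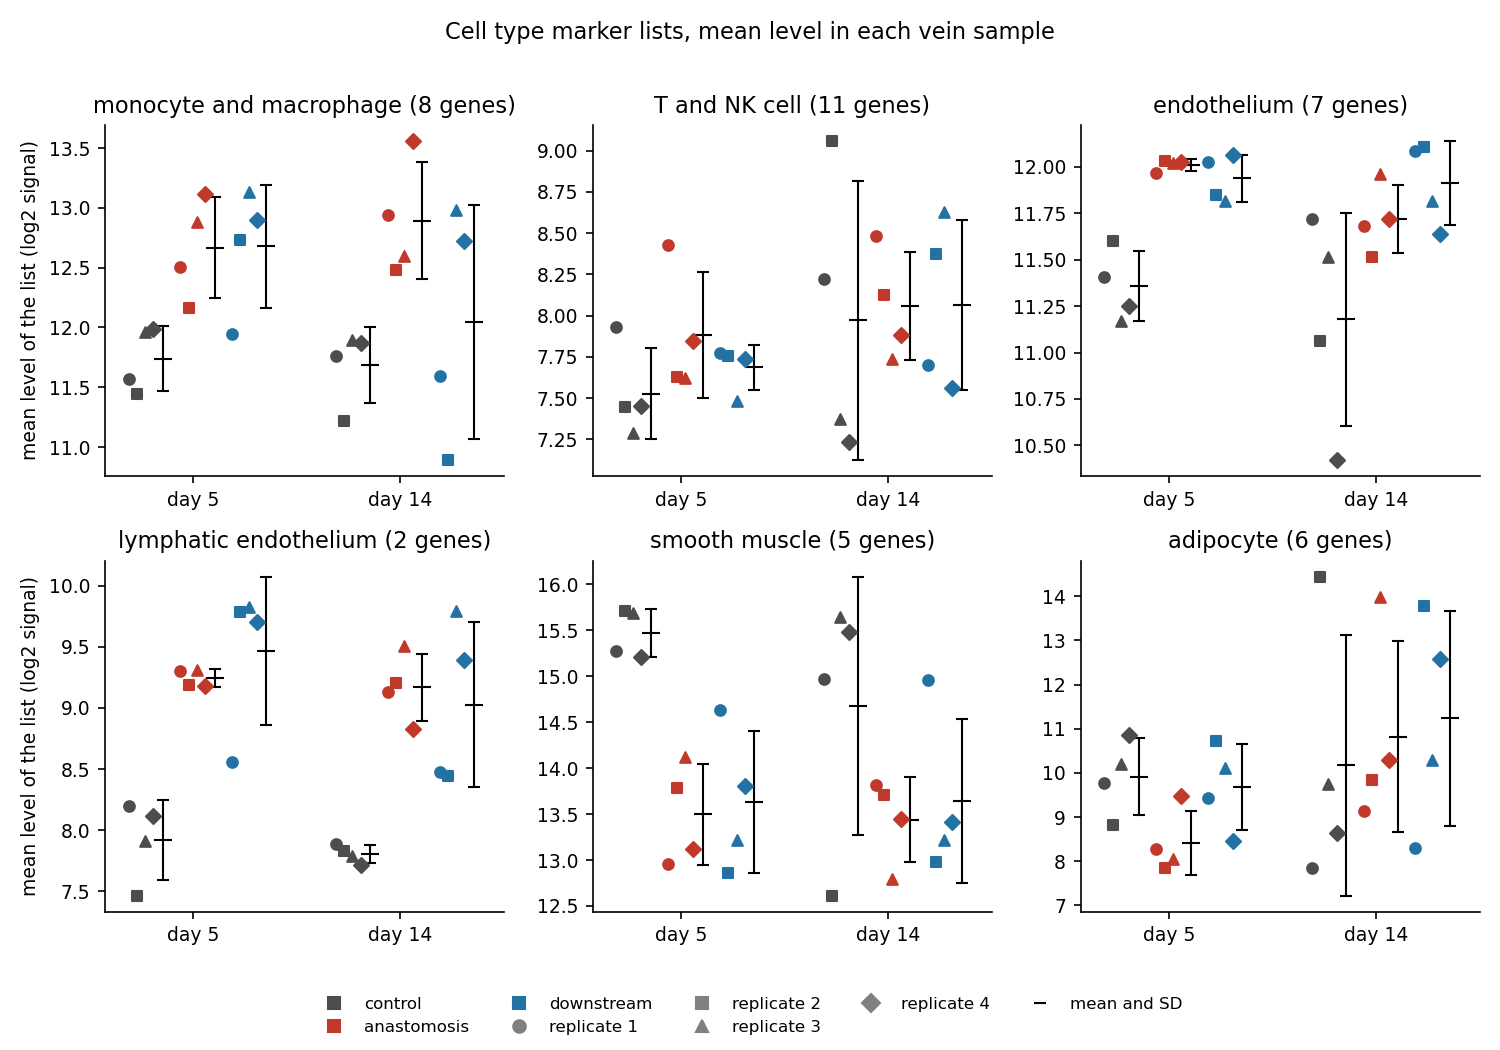
Mean level of the cell type marker lists shown (log2 signal, y axis) in each of the 24 samples by site and day, with replicate numbers as symbols and the mean and SD of each group of 4. The lymphatic endothelium panel averages CCBE1 and PROX1, whose differences from the control had opposite signs at the day 5 anastomosis. Macrophage markers lie higher at the anastomosis than in the control (12.16 to 13.12 against 11.45 to 11.99 at day 5), and the day 14 control of replicate 2 stands out among the controls with 14.44 for adipocyte and 12.61 for smooth muscle markers.

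Some members lie next to each other on a chromosome. In the RefSeq annotation of the Sscrofa11.1 assembly, used only for names and order, CCR9, CXCR6, XCR1, CCR1, CCR3 and CCR2 lie in this order close to each other. At the day 14 anastomosis their differences ran from -0.48 for CCR9, which fell, to 1.49 for its neighbour CXCR6, which rose. CCL21, CCL19 and CCL27 lie together as well, and at the day 14 anastomosis CCL21 rose by 3.13 while CCL19 and CCL27 had differences of 0.46 and 0.07. For the neighbours CXCL9 and CXCL10 the differences at the day 5 anastomosis were -1.47, called, and -0.59, not called.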

How the data were processed

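Per the labels' protocols, a Qiagen RNEasy Micro kit gave the total RNA and the Agilent Quick Amp 2-colour method the labelled targets. The 24 samples lay on 16 arrays and 7 slides, and per the file headers the spots were quantified by Agilent's Feature Extraction 10.5.1.1. The deposited scanner files hold intensity values on a linear scale, not normalised, beside processed intensity values, and outlier and background flags. The authors also deposited a table of log2 values whose making the sources used here do not give. Its column medians are 7.34 to 7.42, and whether it was background-corrected stays unknown. Its direction is that of the own channels, with correlations over probes of 0.92 to 0.96 with the levels used here. Between deviations from the mean of all samples, the correlations were 0.56 to 0.75 in replicates 1 to 3. In replicate 4 they were 0.01 to 0.46, lowest for its day 14 downstream sample. The deposited values of replicate 4 therefore follow the levels used here less closely, at every site and day.

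Intensities were corrected with normexp (offset 50), normalised by loess within and Aquantile between arrays (limma 3.58.1, R 4.3.3), and each sample's own channel was used. Control and outlier spots were left out, and a symbol was read by its brightest probe. A numbered locus was named by its gene ID in the RefSeq table (2166 of 3047), and all 27 members were found there. Features well above background in 4 of 24 samples were tested with lmFit and eBayes, with Benjamini-Hochberg adjustment and a threshold of 0.05. Site comparisons used all samples with 8 blocks (replicate number within day, 12 residual degrees of freedom), and days were compared within a site with no block. Deviations from group means correlated at 0.19 to 0.81 in all 24 pairs of the same number and day. The series' design text makes each number an independent experiment, so the numbers were taken to pair the samples. Day 5 and day 14 samples that shared both site and number correlated as well, at 0.07 to 0.62 in 12 pairs. Correlation by number is therefore not specific to a shared day, and does not by itself show a shared animal or experiment. P-values of a second probe come from a fit with all probes kept apart. The file headers give protocol version 5.1 for replicates 1 and 2 and 5.2 for replicates 3 and 4, so values within each pair of replicates are given. The number of arrays limits the precision.

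Per-sample values are given for members called in any comparison and for ligand and receptor pairs. Where further genes are given by sample, they were chosen after their values were seen. Members, lists and tests were chosen with earlier results of these data known. The fit was tested on simulated data before use. Counts cover all members tested, and the values of 1 member are not reported here.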

Additional observations from a re-analysis of the deposited data

Results flagged for a closer look

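In 8 of 108 groups of 4 samples, over 18 named genes and 6 groups, 1 sample lay far from the other 3, by the gap to the nearest sample over the range. Chance flags about 1 in 20 such groups. The day 14 control of replicate 2 accounted for 3 of them: CCR9 at 7.51 (others 6.54 to 6.59), CXCR4 at 10.84 (others 8.85 to 8.95) and CCR2 at 7.88 (others 7.69 to 7.71). CCR2 also stood out in the day 14 downstream sample of replicate 3, at 9.06 with the others at 7.86 to 7.96. CCL21 stood out in 3 groups, at 8.14 in the day 5 control of replicate 4 (others 6.28 to 6.41), at 7.52 in the day 5 anastomosis of replicate 3 (others 6.23 to 6.39), and at 6.52 in the day 14 control of replicate 3 (others 6.88 to 6.93). CCL20 at the day 14 anastomosis was 7.82 in replicate 4, with the others at 6.74 to 6.83.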

How the results depend on the processing

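All 14 called differences of single members kept their sign in 11 other ways of processing or fitting, and CCL20 at the day 5 anastomosis stayed called in all 11. The estimate did not change with no filter, a filter at 12 samples, no block, slides as the block or the 2 groups fitted alone. Its sign was therefore fixed in advance under those settings. For a gene with 1 probe, the mean of probes also changed nothing. Counts of members called moved as follows, and the cause was not tested. At the day 5 anastomosis 4 became 9 with median centring, 7 with the authors' table and 7 when the 2 groups were fitted alone. It became 0 in replicates 1 and 2 alone, 1 in replicates 3 and 4 alone and 1 with no replicate block. Leaving out a replicate gave 3 to 4, but not always the same genes. Without replicate 3 they were CCL8, CXCL2 and CXCR4, and without replicate 2 CCL20, CXCR4 and XCR1. CCL8, CXCL2 and XCR1 were not called there in the main fit. At the day 14 anastomosis 7 became 4 with the authors' table, 0 in replicates 1 and 2 alone, 2 in replicates 3 and 4 alone, 2 with no replicate block and 0 when the 2 groups were fitted alone; leaving out a replicate gave 1 to 4, and 1 without replicate 4. Downstream at day 5, 1 became 8 with median centring, 4 with quantile normalisation, 4 with the authors' table, 0 in replicates 1 and 2 alone, 0 with no replicate block and 6 when the 2 groups were fitted alone; leaving out a replicate or the day 14 control of replicate 2 gave 0 to 3. Downstream at day 14, 2 became 1 with the processed signal, 11 with median centring, 1 with no filter, 1 with the mean of probes, and 0 in replicates 1 and 2 alone, as with no replicate block and when the 2 groups were fitted alone; leaving out a replicate or that control gave 0 to 2. The authors' table gave 4 for day 14 against day 5 at the anastomosis and 1 for its day change against the control, each 0 otherwise. Over all features that table gave 1478 higher and 1640 lower for the first, and 28 and 14 for the second. With a replicate block the 3 day comparisons stayed at 0. Dim probes (CCR3, CCR6, CCR9, CCL21, CCL27) limit what low levels can show.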
